A study of Mus musculus with 8 samples.

Results

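Semaphorins with their plexin receptors, and ephrins with their Eph receptors, were examined in uterine stromal cells of mice under the labels Erbb3f/f and Erbb3d/d. The members were all gene symbols of the deposited tables that name a semaphorin of subfamilies Sema3 to Sema7, a plexin, an ephrin or an Eph receptor, which gave 51 of 23420 symbols: 20 semaphorins, 9 plexins, 14 Eph receptors and 8 ephrins. Polyadenylated RNA was sequenced at day 3 in 8 libraries, 4 of each genotype, and what day 3 is counted from was not given. In common mouse notation f marks a loxP-flanked allele of Erbb3, a receptor tyrosine kinase, and d the allele after Cre deletion. No Cre driver, strain or age was given, and nothing states whether the libraries came from separate animals, so p-values measure only the spread between these libraries. The question set by the design was which genes of the stroma differ when Erbb3 is targeted.

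Semaphorins and ephrins are guidance signals first studied in axon growth and also active in vessels, epithelia and connective tissue. A semaphorin binds a plexin on a neighbouring cell, and the plexin acts on small GTPases and the cytoskeleton, which usually makes the cell retract. Secreted Sema3 proteins mostly need a neuropilin as co-receptor. Ephrins stay on the membrane, ephrin-A by a lipid (GPI) anchor and ephrin-B by a transmembrane segment, so that a ligand cell and an Eph receptor cell signal to each other on contact and sort into separate territories.

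Reads assigned to genes numbered 8578575 to 12854367 per library, of which 0.349% to 0.450% fell on the members. Values are read counts scaled to a common library size by the trimmed mean of M values (CPM) and follow the order of replicates 1 to 4 within a genotype, and levels of different genes are compared only as CPM per kilobase (kb) of merged exon. A log2 fold change is Erbb3d/d over Erbb3f/f, so that positive values are higher in Erbb3d/d, and adjusted p-values are from edgeR's quasi-likelihood test with Benjamini-Hochberg adjustment over all 14598 genes tested. Erbb3 itself had 7.40, 10.6, 8.25 and 12.3 CPM in the Erbb3f/f libraries against 7.37, 14.3, 17.6 and 16.2 CPM under Erbb3d/d (log2 fold change 0.53 (SE 0.28), adjusted p = 0.485 by edgeR). It was not lower under the Erbb3d/d label, and a whole-gene count does not separate a deleted exon from the rest, so each direction below is that of the libraries labelled Erbb3d/d. The 14 stromal markers summed to 14440 to 18210 CPM in Erbb3f/f and 12190 to 16540 CPM in Erbb3d/d. Other cell types were present too: 20 epithelial markers summed to 1130 to 1816 CPM in Erbb3f/f and 1759 to 2936 CPM in Erbb3d/d (14 of 20 higher at an unadjusted p under 0.05), and 11 smooth muscle markers to 1827 to 3034 and 2932 to 6118 CPM (10 of 11). In bulk RNA, fewer cells of a type and less RNA per cell cannot be told apart. Of 10 glial markers, Sox10 and Foxd3 had no read in any library, and all 5 tested had a positive log2 fold change (median 0.38). The glial sum was 194.9 to 252.7 CPM in Erbb3f/f and 230.1 to 423.3 CPM in Erbb3d/d. Sums of endothelial, lymphatic, pericyte, immune and mesothelial markers also overlapped between the genotypes, as did the epithelial and smooth muscle sums. The smooth muscle sum included Synpo2, the only marker of that list with a negative log2 fold change, -0.28 (SE 0.30). By gene, 13 of 14 endothelial and 3 of 3 lymphatic markers tested had a positive log2 fold change, and 4 of 4 mesothelial markers a negative one.

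At an adjusted p under 0.05, edgeR's quasi-likelihood test called no member, nor any other of the 14598 genes (0% called). Of the 51 members, 47 had enough reads to be tested. At an unadjusted p under 0.05 there were 14 of the 47 (29.8%), 10 higher and 4 lower in Erbb3d/d, where 11.6% of all genes tested passed (6.64% higher and 4.97% lower). The 4 libraries of one genotype lay wholly above those of the other for 3 members (6.38%), Sema3f and Sema4c being higher in Erbb3d/d and Efna2 lower, against 5.04% of all genes tested (2.56% higher and 2.48% lower). The median log2 fold change was 0.07 over the members and -0.01 over all genes tested. DESeq2 called 1 member, Sema3f, where it called 1.82% of all genes. One library decided several of these counts. Without Erbb3d/d replicate 2, edgeR called Ephb2, Sema3c, Sema3f and Sema5a, where 1.75% of all genes were called, and 16 members did not overlap, against 16.1% of all genes. Without Erbb3f/f replicate 1 or 4, 5 and 10 members did not overlap, against 8.28% and 9.26% of all genes. The 14 members at an unadjusted p under 0.05 became 19 without Erbb3d/d replicate 2 (18.9% of all genes), 9 without Erbb3f/f replicate 2 (8.69%) and 8 without Erbb3d/d replicate 4 (6.97%).

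**Figure D1:**
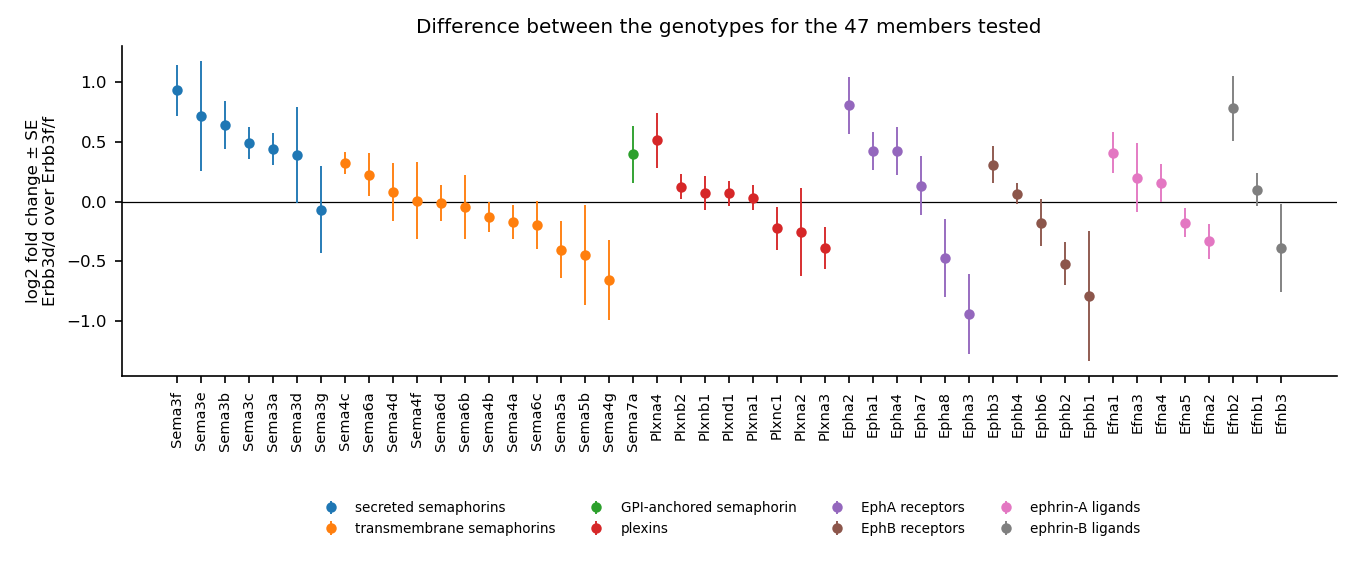
Log2 fold change of Erbb3d/d over Erbb3f/f (vertical axis) with its standard error (bars) for the 47 members tested, by class and sorted within each class. Sema3f has the highest value at 0.93 and Epha3 the lowest at -0.94. Of the secreted semaphorins, 6 of 7 lie above 0.

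Promoter windows from RefSeq (GRCm38.p6, the 250 bases before and 50 after a start) are shown for 4 members. None of these was called by edgeR over all libraries. Sema3c and Sema4c are semaphorins with higher means in Erbb3d/d. The receptor Ephb2 and its ligand Efnb2 had means that differed in opposite directions. No window was available for Sema3f or Sema3b. The windows run 5′ to 3′ on the gene's strand, and capitals mark matches to any of the motifs listed after them, on either strand.
Sema3c: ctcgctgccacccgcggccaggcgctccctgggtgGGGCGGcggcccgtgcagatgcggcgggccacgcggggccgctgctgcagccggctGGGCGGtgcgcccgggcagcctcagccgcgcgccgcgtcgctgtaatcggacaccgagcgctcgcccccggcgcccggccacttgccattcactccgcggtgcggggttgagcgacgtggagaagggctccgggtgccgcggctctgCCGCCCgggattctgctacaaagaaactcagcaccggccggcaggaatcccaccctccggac
Sema4c: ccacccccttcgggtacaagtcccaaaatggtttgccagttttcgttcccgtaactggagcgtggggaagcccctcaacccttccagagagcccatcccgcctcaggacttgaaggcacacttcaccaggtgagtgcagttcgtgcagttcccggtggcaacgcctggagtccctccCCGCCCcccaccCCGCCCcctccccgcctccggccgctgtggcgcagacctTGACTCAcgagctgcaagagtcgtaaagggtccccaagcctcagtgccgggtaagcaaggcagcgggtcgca
Ephb2: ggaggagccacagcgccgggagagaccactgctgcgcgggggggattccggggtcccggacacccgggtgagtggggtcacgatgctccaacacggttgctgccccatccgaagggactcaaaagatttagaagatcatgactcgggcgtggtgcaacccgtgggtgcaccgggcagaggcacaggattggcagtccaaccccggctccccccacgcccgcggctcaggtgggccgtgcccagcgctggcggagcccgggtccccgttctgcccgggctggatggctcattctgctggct
Efnb2: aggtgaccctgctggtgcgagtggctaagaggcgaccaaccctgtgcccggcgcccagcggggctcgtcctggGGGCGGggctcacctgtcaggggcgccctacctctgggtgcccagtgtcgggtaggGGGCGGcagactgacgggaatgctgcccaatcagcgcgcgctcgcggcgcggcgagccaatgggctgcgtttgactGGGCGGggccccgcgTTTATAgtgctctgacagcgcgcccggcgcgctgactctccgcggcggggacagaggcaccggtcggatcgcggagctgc

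The windows lie at chr5:17574566-17574865 (plus strand), chr1:36558332-36558631 (minus strand), chr4:136835963-136836262 (minus strand) and chr8:8661193-8661492 (minus strand). The Sema4c window is the more upstream of 2. The motifs searched were the GC box GGGCGG, the TATA box TATAAA, the AP-1 site TGANTCA, the E-box CACGTG, the cyclic AMP response element TGACGTCA, the palindromic oestrogen response element and the palindromic progesterone and glucocorticoid response element, each on both strands. Sema3c held 3 GC boxes, Sema4c held 2 and an AP-1 site, and Efnb2 held 3 and a TATA box. The Ephb2 window held none of the 7 motifs. Of all 32851 windows, 35.7% held a GC box, 13.6% a TATA box, 7.81% an AP-1 site, 7.15% an E-box, 1.79% a cyclic AMP element, 0.475% a progesterone and glucocorticoid element and 0.0700% an oestrogen element. Among the 59 windows of 45 members, 44 held a GC box (74.6%) and 1 a TATA box (1.69%), at a median GC content of 64.0% against 52.7% over all windows. These matches are letters in a window and describe no binding.

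In levels per kb, the families were led by a few members in Erbb3f/f. Sema5a, a transmembrane semaphorin with thrombospondin repeats, had 72.1 ± 8.08 CPM per kb (SD, n = 4), the highest level of all members. Next came the ephrin-B ligands Efnb1 at 45.6 ± 7.93 and Efnb3 at 33 ± 8.99 CPM per kb, followed by Plxnb2 at 31.2 ± 2.08, Plxna1 at 24.3 ± 2.13 and the ephrin-B ligand Efnb2 at 24.2 ± 6.35 CPM per kb (SD, n = 4). Efnb1 and Efnb3 overlapped within 1 SD, and so did Efnb3 with Plxnb2 and Plxna1 with Efnb2. The other 7 plexins had 10.2 CPM per kb or less. Sema3c led the secreted semaphorins at 22.9 ± 2.44 CPM per kb. EphB receptors stood mainly on Ephb4 at 20.7 ± 0.982 and Ephb2 at 18.2 ± 0.619 CPM per kb (SD, n = 4). Levels of EphA receptors were lower, led by Epha8 at 8.82 ± 1.54 CPM per kb. Efna4 was the highest ephrin-A at 18.2 ± 3.50 CPM per kb, and Sema7a, the only GPI-anchored semaphorin, had 11.3 ± 0.700 CPM per kb (SD, n = 4). Over all 8 libraries, the leading member of each class stayed the same when the longest transcript was used as the length. The order across classes did not stay the same. By merged exon and by longest transcript, Sema4d had 16.1 and 27.7 CPM per kb, against 24.5 and 24.6 for Plxna1. Sema3c had 27.6 and 35.8 CPM per kb, against 29.2 by both lengths for Efnb3.

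**Figure D2:**
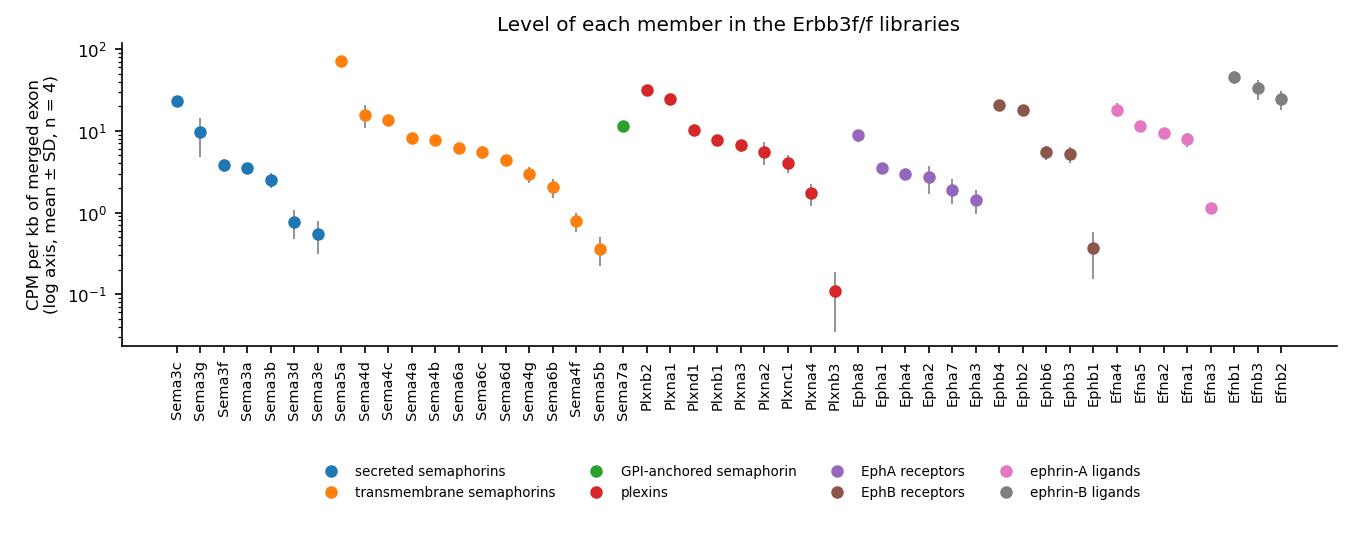
Level of each member in the 4 Erbb3f/f libraries as CPM per kb of merged exon (vertical axis, log scale, points mean, bars SD), by class. Epha5, Epha6 and Epha10 are below 0.1 CPM per kb and are not drawn. Sema5a is the highest point at 72.1 CPM per kb.

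Of the secreted semaphorins, ligands for neuropilin and plexin-A complexes, 6 of 7 had a higher mean in Erbb3d/d and 4 (Sema3a, Sema3b, Sema3c and Sema3f) did so at an unadjusted p under 0.05. Their class sum was 257, 271, 314 and 356 CPM in the Erbb3f/f libraries against 408, 318, 455 and 464 CPM under Erbb3d/d. Erbb3d/d replicate 2 lay within the Erbb3f/f range and the other 3 above it. The median log2 fold change of the class was 0.49, and 4 of the 7 also stood at an unadjusted p under 0.05 without Erbb3d/d replicate 2 (18.9% of all genes) or replicate 4 (6.97%). Sema3f (chr9:107681500-107710475, minus strand, GRCm38), known as a repellent ligand that acts through neuropilin Nrp2, had 17.8, 22.5, 15.9 and 23.4 CPM in the Erbb3f/f libraries against 34, 26.2, 38.4 and 52.8 CPM under Erbb3d/d. All Erbb3d/d libraries were above all Erbb3f/f libraries, with the closest pair at 23.4 and 26.2 CPM. The log2 fold change of Sema3f was 0.93 (SE 0.21). Its adjusted p was 0.215 by edgeR, 0.00796 by DESeq2, and 0.0306 by edgeR when Erbb3d/d replicate 2 was left out. With any other library left out, edgeR gave Sema3f an adjusted p of 0.227 to 0.526.

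Sema3c (chr5:17574281-17730268, plus strand), the highest secreted semaphorin per kb and a ligand with known roles in heart outflow and vessels, had 144, 157, 168 and 185 CPM in Erbb3f/f replicates 1 to 4. In Erbb3d/d replicates 1 to 4 it had 224, 174, 254 and 268 CPM. Replicates 1, 3 and 4 of Erbb3d/d were above every Erbb3f/f library, and replicate 2 was not (log2 fold change 0.49 (SE 0.14), adjusted p = 0.279 in edgeR's test, and 0.0306 without that library). With any other library left out, edgeR gave Sema3c an adjusted p of 0.246 to 0.648. Sema3a (chr5:13125414-13602565), the first described collapsing factor of growth cones, had 46.5, 41.2, 48.4 and 59.4 CPM in the Erbb3f/f libraries against 75.9, 55.8, 68.1 and 65.5 CPM under Erbb3d/d. Its Erbb3d/d replicate 2 again was below the highest Erbb3f/f library, replicate 4 (log2 fold change 0.44 (SE 0.13), adjusted p = 0.294 by edgeR). Sema3b (chr9:107597674-107609229), a neighbour of Sema3f on chromosome 9, had 12.1, 11.2, 9.43 and 15.6 CPM in the Erbb3f/f libraries against 17.5, 14.3, 22.6 and 20.7 CPM under Erbb3d/d. The same pair of libraries overlapped for Sema3b (log2 fold change 0.64 (SE 0.20), adjusted p = 0.305 by edgeR).

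The other 3 secreted semaphorins were not at an unadjusted p under 0.05 by edgeR. Sema3g, known from arterial endothelium, spread from 20.4 to 64.9 CPM in Erbb3f/f and from 29.8 to 55.6 CPM in Erbb3d/d. The log2 fold change of Sema3g, -0.07 (SE 0.37), turned positive without Erbb3f/f replicate 3 or 4 or without Erbb3d/d replicate 2 or 4, the highest being 0.19. Sema3d (4.30 to 10.3 and 4.57 to 15.97 CPM) and Sema3e (2.83 to 7.46 and 2.65 to 12.3 CPM), a direct ligand of Plxnd1, rested on 27 to 182 reads per library. The log2 fold change of Sema3d, 0.39, was -0.08 without Erbb3d/d replicate 4.

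Sums of epithelial and smooth muscle markers were set beside those of secreted semaphorins. Epithelial markers summed to 1607, 1406, 1130 and 1816 CPM in the Erbb3f/f libraries against 1759, 1778, 2931 and 2936 CPM under Erbb3d/d. Smooth muscle markers summed to 3017, 3034, 1827 and 2249 CPM in the Erbb3f/f libraries against 6118, 3334, 2932 and 3780 CPM under Erbb3d/d. Erbb3d/d replicates 3 and 4, first by epithelial markers, had the highest Sema3b, Sema3c and Sema3f. Erbb3d/d replicate 1, first by smooth muscle markers, had the highest Sema3a. By the sum of smooth muscle markers, Erbb3d/d replicate 3 was below Erbb3f/f replicates 1 and 2. Of those 11 markers, 10 had a higher mean under Erbb3d/d and only Synpo2 a lower one. Synpo2 entered that sum with 630.8 and 886.6 CPM for Erbb3f/f replicates 1 and 2, against 323.1 CPM for Erbb3d/d replicate 3. By the sum of epithelial markers, Erbb3d/d replicate 1 was below Erbb3f/f replicate 4. Of these 20 markers, 17 had a higher and 3 a lower mean in Erbb3d/d. Cldn3, 1 of the 3, had 268.5 CPM in Erbb3f/f replicate 4 and 201.8 CPM in Erbb3d/d replicate 1. None of the markers on either list was at 0 in all libraries, and the part of these cells in the semaphorin values was not tested.

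**Figure D3:**
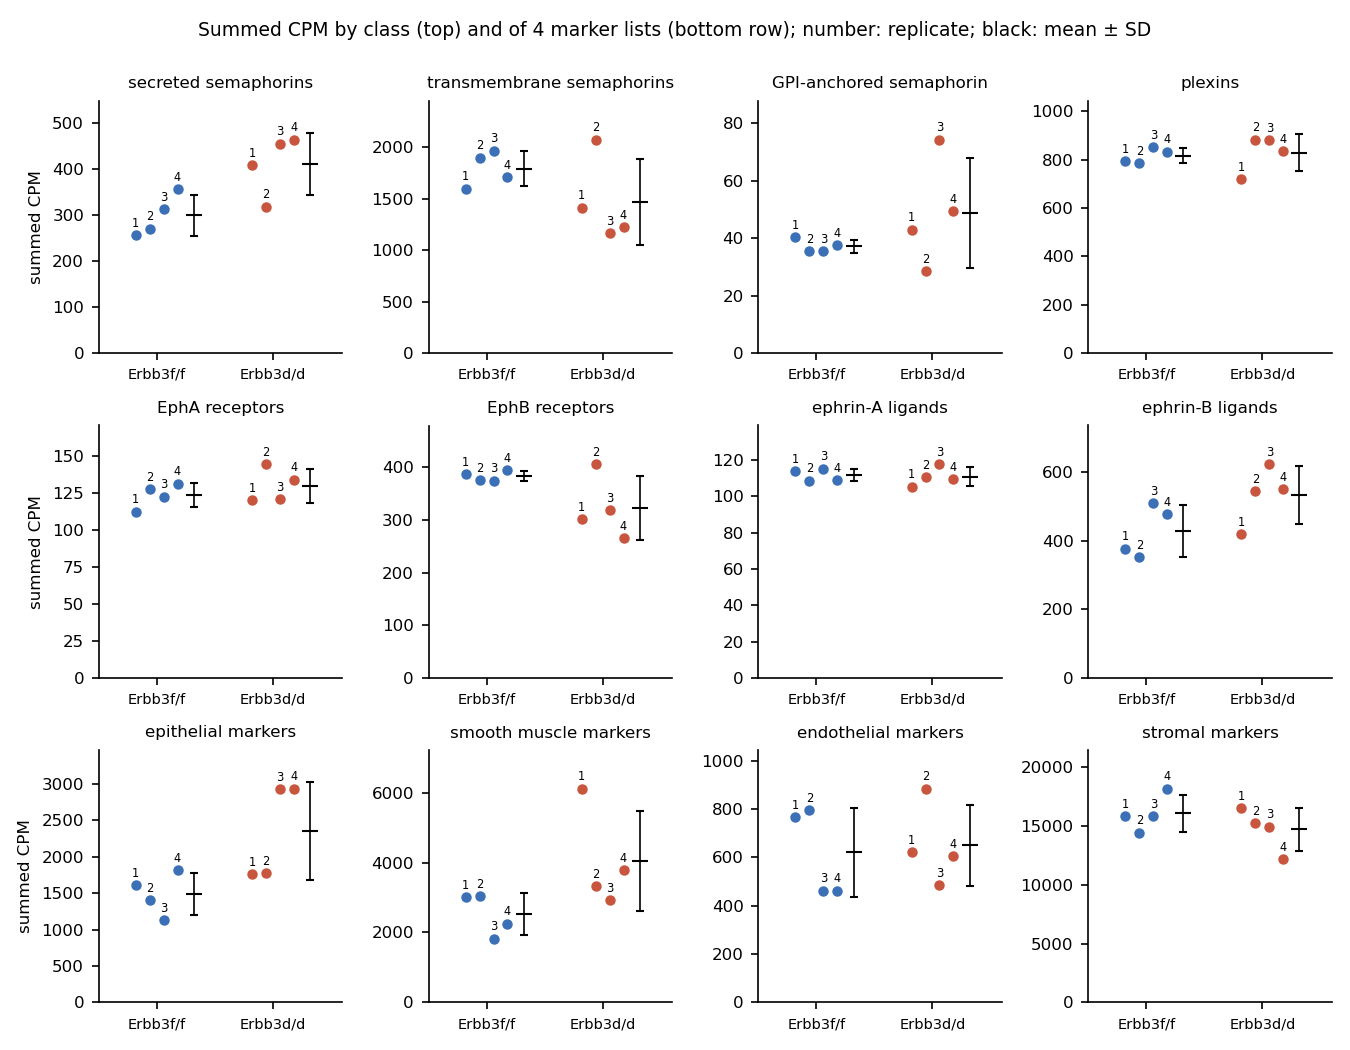
Summed CPM (vertical axis) per library for the 8 classes of members and, in the bottom row, for 4 marker lists. Points are libraries with their replicate number, bars mean and SD. Secreted semaphorins of Erbb3d/d replicates 1, 3 and 4 lie above 400 CPM and all Erbb3f/f libraries at 356 CPM or less.

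Transmembrane semaphorins, which act on plexin-A and plexin-B receptors at cell contacts, did not share a direction: 4 of 12 had a higher and 8 a lower mean in Erbb3d/d, with a median log2 fold change of -0.09. Sema4c (chr1:36548639-36558349, minus strand), a ligand of plexin-B receptors, was the only one at an unadjusted p under 0.05. It had 65.7, 58.8, 63.01 and 60.1 CPM in the Erbb3f/f libraries against 84.7, 81.4, 70.4 and 73.5 CPM under Erbb3d/d, so that the genotypes did not overlap, replicate 2 of Erbb3d/d included. The difference was small (log2 fold change 0.32 (SE 0.09), adjusted p = 0.285 by edgeR). In GENCODE vM21, 334 of the 4593 exonic bases of Sema4c are shared with D430040D24Rik on the other strand. The libraries carry no strand, so reads there cannot be told apart.

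Sema5a (chr15:32244810-32696341, plus strand) had 1183, 1468, 1482 and 1255 CPM in the Erbb3f/f libraries against 966, 1619, 730 and 754 CPM under Erbb3d/d. Replicates 1, 3 and 4 of Erbb3d/d were below every Erbb3f/f library and replicate 2 was above every one (log2 fold change -0.41 (SE 0.24), adjusted p = 0.536 by edgeR). Without Erbb3d/d replicate 2 the log2 fold change came to -0.72 (adjusted p = 0.0374 by edgeR). With any other library left out, edgeR gave Sema5a an adjusted p of 0.601 to 0.859. Stromal markers were summed over the same libraries at 15830, 14440, 15850 and 18210 CPM in the Erbb3f/f libraries against 16540, 15240, 14970 and 12190 CPM under Erbb3d/d, with 10 of 14 lower and 4 higher in mean. At an unadjusted p under 0.05, 5 were lower (Vim, Pdgfra, Hoxa10, Hoxa11 and Nr2f2) and none was higher. Of the 4 with a higher mean, Dcn, Lum, Col1a2 and Esr1, the matrix gene Dcn had the highest log2 fold change, 0.38. For Pdgfra, the receptor that marks fibroblasts, the log2 fold change came to -0.56 (SE 0.13), adjusted p = 0.206 by edgeR. How far the share of stromal RNA entered the Sema5a values was not tested.

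The remaining transmembrane members overlapped between the genotypes. Sema4d, the ligand of Plxnb1, ranged from 75.2 to 164 CPM in Erbb3f/f and from 99.7 to 163 CPM in Erbb3d/d. Sema4g, at 20.7 to 33.7 and 7.46 to 25.7 CPM, had the lowest log2 fold change of the class, -0.66 (SE 0.33), adjusted p = 0.481 by edgeR, and -0.41 without Erbb3d/d replicate 4. Sema4a, Sema4b, Sema6a, Sema6c and Sema6d had means between 28.7 and 62.9 CPM in each genotype and log2 fold changes from -0.20 (Sema6c) to 0.23 (Sema6a). Sema4f, Sema5b and Sema6b stayed at means of 8.05 CPM or less. Sema7a, known from immune cells and as a ligand of integrins and Plxnc1, had 40.3, 35.4, 35.5 and 37.5 CPM in the Erbb3f/f libraries against 42.95, 28.6, 74.3 and 49.5 CPM under Erbb3d/d. Its highest value was in Erbb3d/d replicate 3 and its lowest in replicate 2 of the same genotype (log2 fold change 0.40 (SE 0.24), adjusted p = 0.544 by edgeR). Without Erbb3d/d replicate 3 the log2 fold change of Sema7a was 0.12, and without replicate 2 it was 0.58.

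Plexins, the receptors of semaphorins, summed to nearly equal levels, 816 ± 31.5 CPM in the Erbb3f/f libraries against 828 ± 76.5 CPM under Erbb3d/d (SD, n = 4 each). The leading receptors per kb, Plxnb2 (240 ± 16.03 and 262 ± 34.1 CPM) and Plxna1 (220 ± 19.2 and 225 ± 27.3 CPM, SD, n = 4 each), differed little, by a log2 fold change of 0.13 (SE 0.11) for Plxnb2 and 0.03 (SE 0.11) for Plxna1. Plxna1 shares 970 exonic bases with Gm26811 on the other strand. Intervals of 2 SE around these values leave out a change of 2-fold. Plxna3 (chrX:74329066-74344689), a receptor partner of neuropilin Nrp2, had 64.4, 50.3, 47.7 and 46.02 CPM in the Erbb3f/f libraries against 41.3, 52.7, 34.6 and 30.6 CPM under Erbb3d/d. Replicate 2 of Erbb3d/d lay inside the Erbb3f/f range and the rest below it (log2 fold change -0.39 (SE 0.17), adjusted p = 0.426 by edgeR). Plxna4 (chr6:32144268-32588192), another receptor for Sema3 signals, had 22.6, 20, 35.4 and 19.8 CPM in the Erbb3f/f libraries against 32.04, 24.6, 45.5 and 37.6 CPM under Erbb3d/d. Its genotypes overlapped through Erbb3f/f replicate 3, and 110 of its exonic bases are shared with Plxna4os3 on the other strand (log2 fold change 0.51 (SE 0.23), adjusted p = 0.430 by edgeR).

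Plxna2 had 93.1, 65.6, 136 and 84.6 CPM in the Erbb3f/f libraries against 63.5, 149, 52.2 and 53.3 CPM under Erbb3d/d, and replicate 2 of Erbb3d/d stood far above the other 3, as it did for Sema5a. The log2 fold change of Plxna2 was -0.26 (SE 0.37), and it ranged from -0.75 without that library to -0.03 without Erbb3f/f replicate 3. Plxnb1, Plxnc1 and Plxnd1, of which Plxnd1 is best known in endothelium, had log2 fold changes of 0.07, -0.22 and 0.07. Endothelial markers summed to 461.8 to 795.4 CPM in Erbb3f/f and 485.3 to 885.1 CPM in Erbb3d/d. Plxnb3 had only 3 to 18 reads per library and did not enter the test across genes (exact two-sided permutation test of its CPM over 70 assignments of the libraries, p = 0.229).

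**Figure D4:**
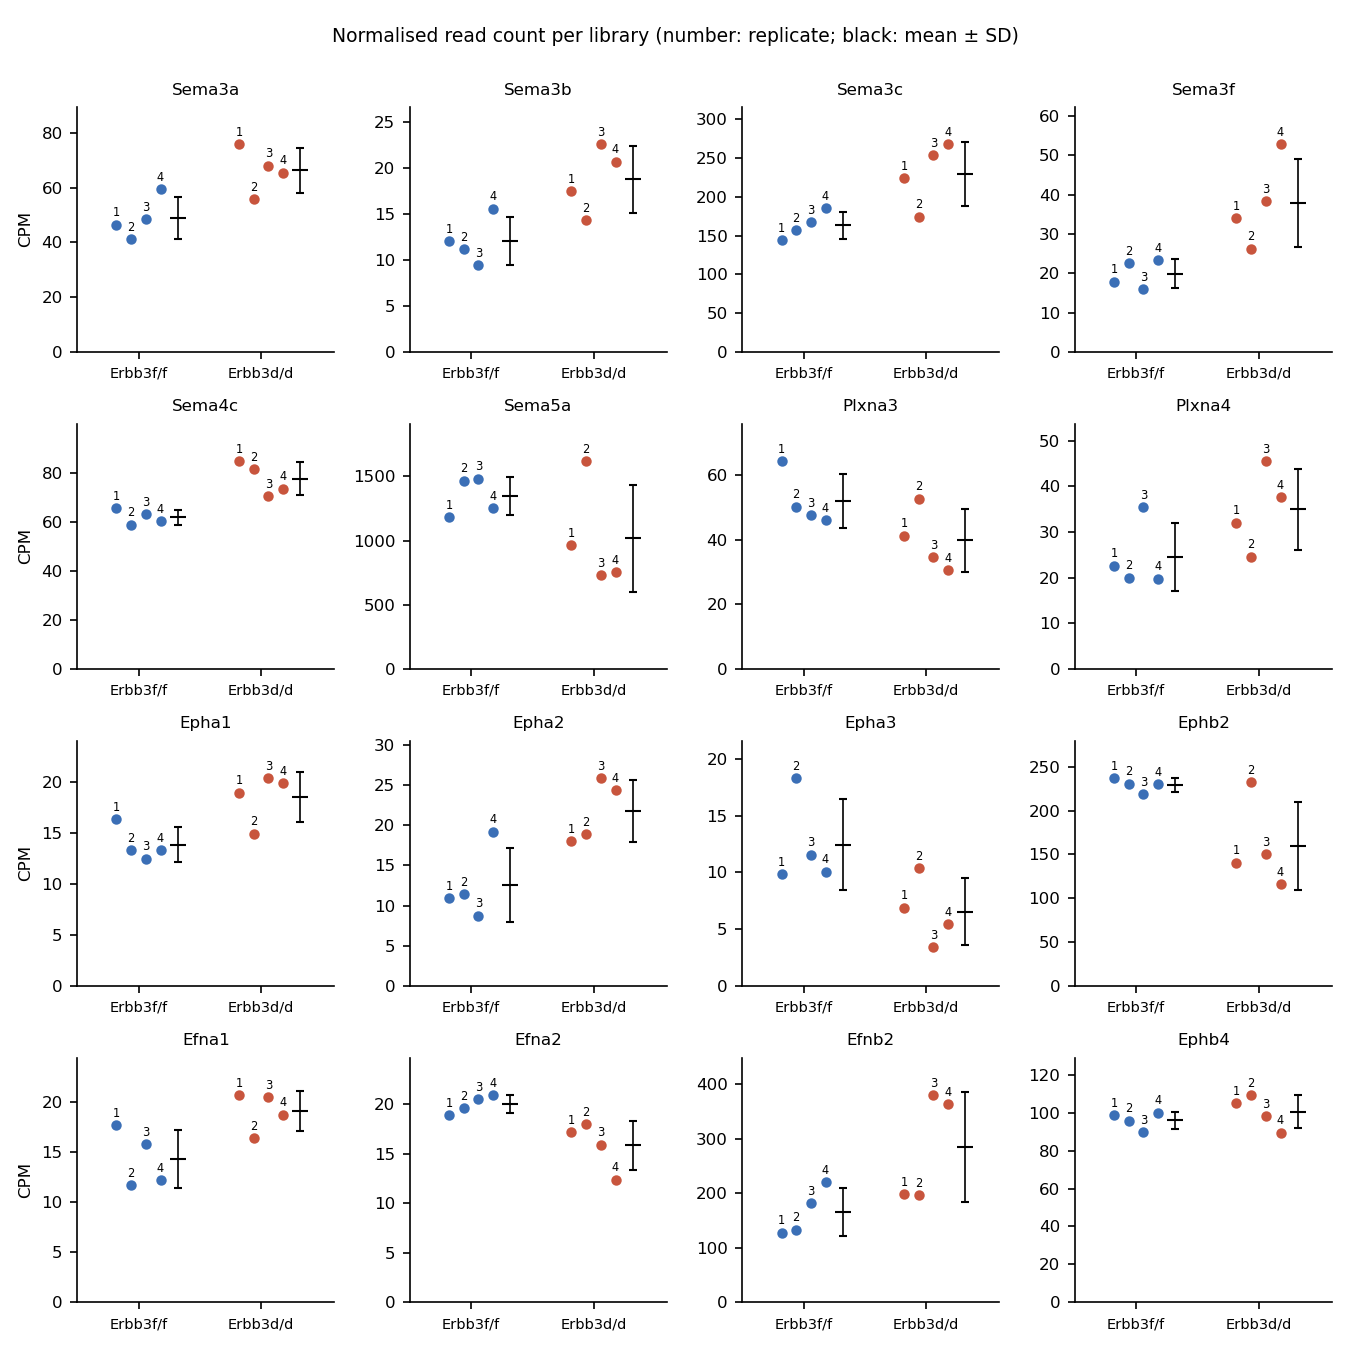
CPM (vertical axis, from 0) in each library for the 14 members at an unadjusted p under 0.05 and for Sema5a and Ephb4. Points are libraries with their replicate number, black bars mean and SD. Only Sema3f, Sema4c and Efna2 show no overlap, and for Ephb2 and Sema5a Erbb3d/d replicate 2 sits with the Erbb3f/f libraries or above them.

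Eph receptors of the A class, which mostly bind ephrin-A, included both higher and lower members. Epha2 (chr4:141301240-141329384, plus strand), common in epithelia, had 10.9, 11.4, 8.72 and 19.2 CPM in the Erbb3f/f libraries against 18.1, 18.9, 25.9 and 24.4 CPM under Erbb3d/d. Only Erbb3f/f replicate 4 reached the Erbb3d/d values (log2 fold change 0.80 (SE 0.24), adjusted p = 0.294 by edgeR). Epha1 (chr6:42358487-42373268), also an epithelial receptor, had 16.4, 13.3, 12.5 and 13.3 CPM in the Erbb3f/f libraries against 18.97, 14.9, 20.4 and 19.9 CPM under Erbb3d/d. Replicate 2 was the one Erbb3d/d library inside the Erbb3f/f range (log2 fold change 0.42 (SE 0.16), adjusted p = 0.356 by edgeR), and 236 of its exonic bases are shared with Zyx on the other strand. Both receptors were highest in Erbb3d/d replicates 3 and 4, where epithelial markers summed to 2931 and 2936 CPM. The part of epithelial RNA in them was not tested.

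Epha3 (chr16:63543534-63864175, minus strand), known from embryonic mesenchyme, had a lower mean in Erbb3d/d. It had 9.84, 18.3, 11.6 and 10.1 CPM in the Erbb3f/f libraries against 6.88, 10.4, 3.39 and 5.44 CPM under Erbb3d/d, from 43 to 175 reads per library. Erbb3d/d replicate 2 again lay among the Erbb3f/f libraries (log2 fold change -0.94 (SE 0.34), adjusted p = 0.337 by edgeR). Epha8, the highest EphA per kb, had 34.6, 51.7, 39.1 and 40.8 CPM in the Erbb3f/f libraries against 41.2, 41.9, 13.3 and 23.9 CPM under Erbb3d/d. Only Erbb3d/d replicates 3 and 4 were below the Erbb3f/f range (log2 fold change -0.47 (SE 0.32), adjusted p = 0.600 by edgeR, and -0.22 without Erbb3d/d replicate 3). Epha4, a receptor for both ephrin classes, was at 21.1 to 26.7 CPM in Erbb3f/f. Erbb3d/d replicates 2, 3 and 4 were above that range at 35.6 to 37.7 CPM, and replicate 1 was below it at 19.2 CPM. For Epha4 the log2 fold change came to 0.42 (SE 0.20), adjusted p = 0.448 by edgeR. Epha7 overlapped in full. Epha5 and Epha6 had 0 to 8 reads per library (exact two-sided permutation tests, p = 1 and p = 0.714), and Epha10 had no read in any library.

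Among EphB receptors, which bind ephrin-B, the sum was 383 ± 9.34 CPM in the Erbb3f/f libraries against 323 ± 59.99 CPM under Erbb3d/d (SD, n = 4 each). The only EphB receptor at an unadjusted p under 0.05 was Ephb2 (chr4:136647539-136835988, minus strand), known from the sorting of cells in intestinal crypts. Ephb2 had 237, 231, 218 and 230 CPM in Erbb3f/f replicates 1 to 4, a spread of 229 ± 7.80 CPM (SD, n = 4). In Erbb3d/d replicates 1 to 4 it had 140, 233, 150 and 116 CPM. Replicates 1, 3 and 4 of Erbb3d/d were well below every Erbb3f/f library, and replicate 2 matched them. Over all libraries the log2 fold change came to -0.52 (SE 0.18), adjusted p = 0.337 by edgeR, and without Erbb3d/d replicate 2 to -0.75 (adjusted p = 0.0134 by edgeR). With any other library left out, edgeR gave Ephb2 an adjusted p of 0.424 to 0.704.

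Ephb4 (chr5:137350109-137378669, plus strand), the venous partner of ephrin-B2 in vessels, had 98.7, 95.7, 89.7 and 100 CPM in the Erbb3f/f libraries against 105, 109, 98.1 and 89.5 CPM under Erbb3d/d. The values of both genotypes were close, and 33 exonic bases are shared with Zan on the other strand (log2 fold change 0.07 (SE 0.09), adjusted p = 0.813 by edgeR). Ephb3, expressed in epithelia, had 34.5 ± 7.60 and 42.7 ± 4.40 CPM (SD, n = 4 each; log2 fold change 0.31 (SE 0.16)). Ephb6, which lacks kinase activity, had 20.5 ± 4.06 and 18.2 ± 3.96 CPM (SD, n = 4 each). Ephb1 had only 5 to 49 reads per library.

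Ephrin-A ligands together had 112 ± 3.39 CPM in the Erbb3f/f libraries against 111 ± 5.17 CPM under Erbb3d/d (SD, n = 4 each), while 2 of them differed in opposite directions at an unadjusted p under 0.05. Efna1 (chr3:89271733-89281142), a ligand of Epha2, had 17.7, 11.7, 15.8 and 12.2 CPM in the Erbb3f/f libraries against 20.7, 16.4, 20.5 and 18.8 CPM under Erbb3d/d. Its genotypes overlapped through Erbb3f/f replicate 1 and Erbb3d/d replicate 2 (log2 fold change 0.41 (SE 0.17), adjusted p = 0.404 by edgeR). Efna2 (chr10:80179482-80190010, plus strand) had 18.9, 19.6, 20.5 and 20.9 CPM in the Erbb3f/f libraries against 17.2, 17.96, 15.9 and 12.4 CPM under Erbb3d/d, with every Erbb3d/d library below every Erbb3f/f library. The gap between the closest libraries was under 1 CPM (log2 fold change -0.33 (SE 0.15), adjusted p = 0.427 by edgeR). Efna4 and Efna5, the highest of the class per kb in Erbb3f/f, had a log2 fold change of 0.16 (SE 0.16) for Efna4, which shares 168 exonic bases with 4731419I09Rik on the other strand, and -0.18 (SE 0.12) for Efna5. Efna3 had 21 to 48 reads per library.

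Of the 3 ephrin-B ligands, Efnb2 (chr8:8617434-8661242, minus strand), a ligand of Ephb2 and Ephb4 and an arterial marker, had 128, 133, 182 and 220 CPM in the Erbb3f/f libraries against 199, 197, 380 and 363 CPM under Erbb3d/d. The excess lay in Erbb3d/d replicates 3 and 4, while replicates 1 and 2 were inside the Erbb3f/f range. The log2 fold change came to 0.78 (SE 0.27), adjusted p = 0.337 by edgeR. With the replicate number as a block it came to 0.75 (adjusted p = 0.0406 by edgeR), where 0.356% of all genes were called. The same 2 libraries were first by epithelial markers but not by endothelial markers, whose sum was 485.3 and 605.5 CPM there against 461.8 to 795.4 CPM in Erbb3f/f. Sox17 and Cdh5 gave the largest parts of that sum, with means of 211.5 and 173.2 CPM over all libraries. Of the 14 endothelial markers, 13 had a positive log2 fold change and Cdh5 a negative one, -0.38 (SE 0.36). Plvap, at 0.77 (SE 0.27), was the only 1 at an unadjusted p under 0.05 (adjusted p = 0.337 by edgeR). The part of either cell type in the Efnb2 values was not tested. Efnb1, an X-linked ligand known for cell sorting in the skeleton, had 158 ± 27.4 and 169 ± 21.9 CPM (SD, n = 4 each; log2 fold change 0.10 (SE 0.14)). Efnb3 had 109, 89.5, 144 and 78.1 CPM in the Erbb3f/f libraries against 59.5, 148, 73.8 and 40.7 CPM under Erbb3d/d, with replicates 1, 3 and 4 of Erbb3d/d below and replicate 2 above the Erbb3f/f range (log2 fold change -0.39 (SE 0.37), adjusted p = 0.723 by edgeR). For Efnb3 that value was -0.85 without Erbb3d/d replicate 2, -0.16 without Erbb3d/d replicate 4 and -0.20 without Erbb3f/f replicate 3.

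Across the 47 members tested, the Erbb3d/d libraries differed from Erbb3f/f to unequal degrees. Replicate 2 lay outside the range of the 4 Erbb3f/f libraries for 16 members (34%), against 34.6% of all genes tested. Replicates 1, 3 and 4 did so for 30, 34 and 32 members (63.8%, 72.3% and 68.1%), against 44.9%, 49.2% and 56.4% of all genes. In replicate 1 the members outside were 12 above and 18 below, in replicate 3 they were 20 above and 14 below, and in replicate 4 they were 18 above and 14 below.

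Partners outside the families were read from 3 lists of co-receptors and effectors. EdgeR's test called no gene of these lists at an adjusted p under 0.05. Of 11 semaphorin co-receptors and non-plexin receptors, 7 had a higher and 4 a lower mean in Erbb3d/d (median log2 fold change 0.02, against -0.01 over all genes tested). The neuropilins, which hold secreted semaphorins at plexins, had 161 ± 12.8 and 161 ± 18.9 CPM for Nrp1 and 99.3 ± 7.71 and 122 ± 25.8 CPM for Nrp2 (SD, n = 4 each). Over the genotypes, Nrp1 had a log2 fold change of 0.00 and Nrp2 one of 0.29 (SE 0.14). Met, the hepatocyte growth factor receptor that can pair with plexin-B, was the only one of this list at an unadjusted p under 0.05 (9.09%, against 11.6% of all genes tested), with 19.7, 22.5, 19.01 and 25.3 CPM in the Erbb3f/f libraries against 25.9, 25.4, 57.8 and 66.7 CPM under Erbb3d/d. Its genotypes did not overlap, although the closest libraries were nearly equal, and the high values were those of replicates 3 and 4, the first by epithelial markers (log2 fold change 1.03 (SE 0.32), adjusted p = 0.311 by edgeR).

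Of 29 plexin effectors, 2 were higher and 1 was lower at an unadjusted p under 0.05, a share of 10.3% near the 11.6% of all genes tested (median log2 fold change 0.01). Mical2, an enzyme that oxidises actin and is also strong in muscle, had 80.5, 76.3, 59.8 and 63.7 CPM in the Erbb3f/f libraries against 129, 101, 108 and 111 CPM under Erbb3d/d. Its genotypes were well apart (log2 fold change 0.68 (SE 0.12), adjusted p = 0.133 by edgeR), and its highest library, Erbb3d/d replicate 1, was also first by smooth muscle markers at 6118 CPM. The part of muscle RNA in it was not tested. Farp1 and Farp2, exchange factors linked to plexin-A, differed in opposite directions, by 0.26 (SE 0.09) for Farp1 and -0.60 (SE 0.19) for Farp2 on the log2 scale (adjusted p = 0.335 and 0.311 by edgeR). Farp2 shares 1013 exonic bases with Stk25 on the other strand. Of 28 Eph and ephrin effectors, 27 were tested and Chn2, a Rac-GTPase activating protein, was the only one at an unadjusted p under 0.05, or 3.7% of the list (median log2 fold change 0.05). It had 13.1, 8.48, 7.93 and 8.93 CPM in the Erbb3f/f libraries against 16.4, 13.3, 18.3 and 16.1 CPM under Erbb3d/d, with no overlap (log2 fold change 0.74 (SE 0.20), adjusted p = 0.279 by edgeR), and shares 552 exonic bases with 9130019P16Rik on the other strand.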

How the data were processed

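The authors deposited raw read counts per gene symbol, 1 table per library. HISAT2, SAMtools, HTSeq and StringTie and the build mm10 (GRCm38) are named in the submitters' processing notes, and the gene annotation and counting options are not given in the sources used here. Per the labels' protocols the libraries were poly(A)-selected and non-directional. The 5 closing lines that name no gene (70.9% to 73.0% of entries) were left out.

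Genotypes were compared by edgeR 4.0.16 (R 4.3.3; filterByExpr, TMM, glmQLFit with robust fitting, glmQLFTest; genotype only) and DESeq2 1.42.0 as an alternative, at a threshold of 0.05. The fit was tested on simulated counts with known fold changes, at an adjusted p under 0.05. Of 100 genes set to a log2 change of 1 in size, edgeR recovered 70% and DESeq2 80%. Of 99 set to 2, edgeR recovered 92.9% and DESeq2 96%. Among unchanged genes, edgeR made 14 false calls and DESeq2 53. The simulated counts held no library that departed from the others across genes, and no log2 change under 1 in size was set. The recovered shares therefore do not carry over to the smaller differences of the members. Replicate libraries differed beyond sampling noise. Positions and lengths are from GENCODE vM21 (GRCm38), which held all 51 members. Members given library by library had an unadjusted p under 0.05 or no overlap, or led their class per kb; others, the neuropilins included, were chosen after their values were seen. The members and lists were chosen with earlier results of these data known. Alternatives were other scalings, no filter, DESeq2, a replicate block and each library left out.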

Additional observations from a re-analysis of the deposited data

Results flagged for a closer look

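Of 110 groups of 4 libraries examined, 6 held a value far from the other 3, where chance gives about 1 in 20 (5.5). Plxna2 in Erbb3d/d replicate 2 had 149 CPM, above the next library of its genotype at 63.5 CPM. Epha4 in Erbb3d/d replicate 1 had 19.2 CPM, below the next at 35.6 CPM. Sema6a in Erbb3d/d replicate 3 had 39.8 CPM, below the next at 67.5 CPM. In Erbb3f/f replicate 4, Plxnb2 had 264 CPM, above the next at 234 CPM, and Sema4f had 5.65 CPM, above the next at 3.70 CPM. Ephb6 in Erbb3f/f replicate 3 had 26.6 CPM, above the next at 19.3 CPM.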

How the results depend on the processing

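Scaling by size factors or the upper quartile and testing without a filter left 0 members and 0 genes called, as in edgeR's test. DESeq2 called 261 genes and 1 member (Sema3f). Leaving out 1 library gave 0 to 259 called genes, 0 to 4 called members, 3 to 16 members without overlap and 8 to 19 members at an unadjusted p under 0.05; for called genes and members only the fit without Erbb3d/d replicate 2 gave any. That count at an unadjusted p was followed across settings only after the data were seen. Same-numbered libraries of the 2 genotypes had correlated deviations, r of 0.0998 to 0.241: 3 of 4 pairs were over the 0.1 asked of every pair and replicate 3 was just under it. By their own number, 3 of 4 Erbb3f/f and 2 of 4 Erbb3d/d libraries correlated best. The highest r, 0.318, was between libraries of unlike number, Erbb3f/f replicate 4 and Erbb3d/d replicate 3. By the narrow margin of replicate 3, the numbers were not taken as pairs. The replicate block called 52 genes and 1 member, Efnb2 (log2 fold change 0.75). With the block the log2 fold change of Sema3g was 0.034 and that of Sema4f -0.029, both reversed. Of the 47 members tested, 37 kept their direction under every alternative run. The other 10 reversed, with leave-one-out ranges of -0.066 to 0.28 for Epha7, -0.015 to 0.12 for Plxna1, -0.0095 to 0.19 for Plxnb1, -0.011 to 0.12 for Plxnd1, -0.079 to 0.70 for Sema3d, -0.29 to 0.19 for Sema3g, -0.081 to 0.27 for Sema4d, -0.27 to 0.19 for Sema4f, -0.25 to 0.083 for Sema6b and -0.17 to 0.088 for Sema6d. With 1 library left out, the log2 ratio of the class sums was 0.40 to 0.57 for secreted semaphorins. It was -0.49 to -0.19 for transmembrane semaphorins and 0.12 to 0.58 for Sema7a. For EphA receptors it was 0.022 to 0.11, for EphB receptors -0.37 to -0.16 and for ephrin-B ligands 0.24 to 0.42. The ratios of plexins, -0.0054 to 0.085, and of ephrin-A ligands, -0.038 to 0.013, crossed 0. The cause of these changes was not tested. At 8578575 to 12854367 reads in genes, members under 50 reads per library (Ephb1, Efna3, Sema5b, Plxnb3, Epha5, Epha6, Epha10) cannot show small differences.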
